A study of Mus musculus with 12 samples.

Results

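Preosteoclasts grown from the femur marrow of ligated mice were compared between LSD1cKO and LSD1WT animals, which gave 2 libraries for each genotype, or 4 of the 12 libraries of the series. The members were chosen by name as the ligated femur libraries of mice 1 and 2 of each genotype. All 4 mice were female, had silk ligatures around the maxillary second molars on both sides for 7 days, and were given as 2 months of age in the labels, while the methods of the study give an older age for the sequenced animals. Flushed femur marrow was kept for 2 days in M-CSF plus RANKL, and polyadenylated RNA was sequenced. LSD1cKO mice carried floxed LSD1 alleles and Cre recombinase under the LysM promoter, that of the Lyz2 gene, which is active in monocytes, macrophages and neutrophils, so Cre is not limited to cells on the way to osteoclasts. The labels do not say whether LSD1WT mice carried Cre. LSD1cKO and LSD1WT mice that share a number were different animals. LSD1WT mouse 1 and both LSD1cKO mice also gave mandible libraries, and a further ligated LSD1WT library whose labels conflict was a mandible library by its title and was not compared here. The other 4 femur libraries came from unligated mice of the same genotypes, again 2 of each. The question was which transcripts differed with LSD1 loss in femur preosteoclasts under ligature-induced periodontitis.

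LSD1, encoded by Kdm1a, removes methyl groups from histone H3, mostly as part of repressor complexes with CoREST proteins, histone deacetylases and DNA-binding factors such as GFI1 and GFI1B. Preosteoclasts are macrophage-lineage cells that M-CSF keeps alive and RANKL drives, through NFATc1, to express the fusion and resorption genes of the osteoclast. Type I interferons act on the same precursors through JAK kinases and a transcription factor complex that holds IRF9 and binds a GAAA repeat known as the interferon-stimulated response element, and they restrain osteoclast formation.

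Because interferon-stimulated genes held many of the differences described below, the promoters of several of them are shown here for the letters they carry. The sequences are from RefSeq on GRCm38.p6, and each line gives the 150 bases before the annotated start, 5′ to 3′ on the strand of the gene. Capitals mark matches to GAAANNGAAA or, on the other strand, TTTCNNTTTC, and overlapping matches run together. Isg15, which encodes a ubiquitin-like protein, held 3 overlapping matches at chr4:156200819-156200968 on the minus strand. Ifit1, whose product binds viral RNA, held 2 matches at chr19:34640739-34640888 on the plus strand. Irgm1, an immunity-related GTPase, held 2 overlapping matches at chr11:48871421-48871570 on the minus strand, and Gbp7, a guanylate-binding protein, held 1 at chr3:142530186-142530335 on the plus strand. Slfn1, a schlafen family gene with the largest upward gap between genotypes below, is shown as a promoter without a match, at chr11:83116670-83116819 on the plus strand.
Isg15: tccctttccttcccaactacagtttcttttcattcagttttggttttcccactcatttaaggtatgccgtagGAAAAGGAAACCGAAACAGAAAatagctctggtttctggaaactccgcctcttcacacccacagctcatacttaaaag
Ifit1: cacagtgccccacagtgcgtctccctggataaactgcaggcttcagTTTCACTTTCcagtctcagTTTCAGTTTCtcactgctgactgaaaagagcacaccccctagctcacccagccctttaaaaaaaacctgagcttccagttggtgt
Irgm1: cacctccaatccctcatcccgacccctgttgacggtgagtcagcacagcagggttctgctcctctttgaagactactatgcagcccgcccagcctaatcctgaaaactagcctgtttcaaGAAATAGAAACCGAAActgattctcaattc
Gbp7: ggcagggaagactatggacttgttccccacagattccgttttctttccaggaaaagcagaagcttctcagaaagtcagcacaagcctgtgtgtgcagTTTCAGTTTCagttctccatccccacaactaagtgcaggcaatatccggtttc
Slfn1: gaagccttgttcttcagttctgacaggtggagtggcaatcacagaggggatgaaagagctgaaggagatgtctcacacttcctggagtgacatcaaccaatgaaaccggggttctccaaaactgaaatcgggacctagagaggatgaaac

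Over windows from 250 bases before to 50 after the start, searched on both strands, 3.44% of all 32851 RefSeq promoters held at least 1 match, and the share of genes with a match in any of their promoters was 3.99% over the whole table and 4.01% over the genes tested here. Among genes of the lists used here that matched the table, a match stood in 15 of 28 antiviral interferon-stimulated genes (53.6%) and in all 10 of the interferon-inducible GTPases that matched (100%), of 15 on that list. The share was 4 of 13 for MHC class I presentation (30.8%), 1 of 8 for MHC class II presentation (12.5%) and 2 of 17 for interferon signalling (11.8%). A match is a description of the letters and not of a bound site.

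The 4 libraries held 21375805 to 32526751 counts assigned to genes, the same range as all 12 libraries, so that 3 counts corresponded to between 0.094 and 0.1485 CPM, the depth-scaled unit of a gene's level used throughout, a floor that covers counting error only. The LSD1WT libraries were unlike each other. On log2 CPM their Pearson correlation across genes was 0.882, with 6384 genes over 2-fold apart, against 0.989 and 833 genes for the LSD1cKO pair. LSD1WT replicate 1 stood nearer to the LSD1cKO libraries (0.961 and 0.963) than replicate 2 did (0.915 and 0.918). LSD1WT replicate 2 went against its preosteoclast label by the defining markers. Acp5, the tartrate-resistant phosphatase of osteoclasts, was at 7007 CPM in LSD1WT replicate 1, 8.02 in replicate 2, and 4978 and 4594 in the LSD1cKO libraries. Ctsk, the collagen-degrading protease cathepsin K, followed the same order at 7360, 5.69, 3851 and 3953 CPM. Macrophage transcripts went the other way, and Lyz2, the lysozyme gene whose promoter drives Cre, was at 3095 CPM in LSD1WT replicate 1, 34091 in replicate 2, and 6565 and 7810 in LSD1cKO. The LSD1cKO levels of these genes thus lay between those of the LSD1WT libraries. Nothing in the labels says more of how replicate 2 differed, and its part in any result was measured by giving each LSD1WT library singly. In bulk RNA, fewer cells of a type and less RNA per cell cannot be told apart.

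Kdm1a was lower in LSD1cKO. Its level was 64.7 and 67.7 CPM in LSD1WT and 15.9 and 18.4 CPM in LSD1cKO, so the groups did not overlap and the LSD1cKO mean was 25.9% of the LSD1WT mean. The log2 fold change was -1.95 ± 0.21 (SE, n = 2 and 2), with an adjusted p of 0.134 by the quasi-likelihood test of edgeR, adjusted after Benjamini-Hochberg, and 1.09e-13 in DESeq2. Among the partners of LSD1, Rcor1, Hdac1, Hdac2 and Phf21a were not separated between genotypes, nor was the related demethylase Kdm1b. Gfi1b and Gfi1 were the members of this list of 14 that were above both LSD1WT libraries, Gfi1 at no more than 0.271 CPM in any library.

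No gene passed an adjusted p of 0.05 in edgeR's quasi-likelihood test over 16130 genes (0% called), and the smallest adjusted p was 0.134. Without adjustment, 593 genes were higher (3.68%) and 164 lower (1.02%) at p under 0.05. With LSD1WT replicate 1 alone, 841 genes were higher and 440 lower without adjustment and none passed it, and with replicate 2 alone the counts were 1385 and 957, again with none past the adjusted threshold. DESeq2 on the same libraries called 139 genes higher and 4 lower. When both replicate 2 LSD1WT femur libraries, ligated and unligated, were left out, edgeR called 606 genes higher and 61 lower, and without both replicate 1 libraries 1587 and 1375. The libraries of 1 genotype came from separate mice, but with 2 of each the p-values rest on few degrees of freedom, and where an LSD1WT library was alone it was taken to vary like the other groups, and without both replicate 2 libraries the spread came from the LSD1cKO pairs alone.

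Because the counts of called genes changed with the tool and with the LSD1WT libraries kept, genes were also described by position alone, with no test. A gene was separated upward when both LSD1cKO libraries lay above both LSD1WT libraries, and downward in the opposite case. Of the 16130 genes, 2966 were separated upward (18.4%) and 2271 downward (14.1%), and with other scalings the balance moved to 2639 and 2681 (RLE) or 2652 and 2615 (upper quartile). A gap of at least 2-fold between the nearest libraries, on CPM + 1, left 267 genes upward (1.66%) and 8 downward (0.0496%). Among the genes not separated, 3551 were below LSD1WT replicate 1 and above replicate 2 in both LSD1cKO libraries (22% of all genes). The reverse held for 3193 (19.8% of all genes). All 139 genes that DESeq2 called higher were separated upward, 130 of them by 2-fold or more. Of the 606 called higher without both replicate 2 LSD1WT libraries, 354 were separated upward when that library was counted again.

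**Figure D1:**
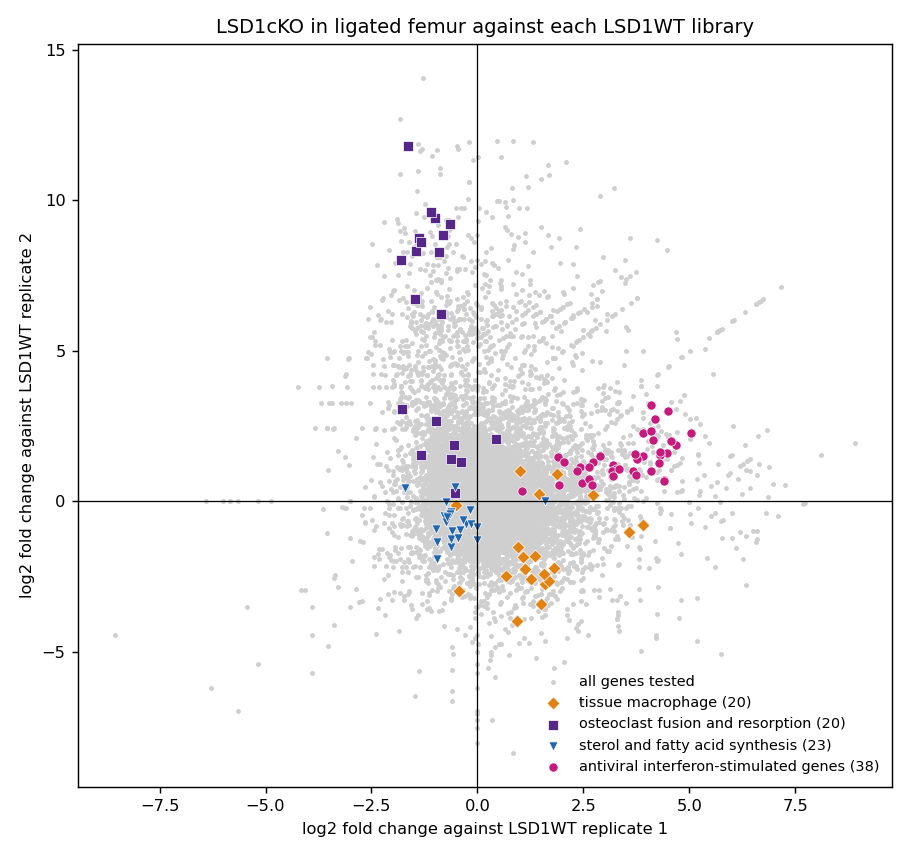
Log2 fold change of LSD1cKO over LSD1WT replicate 1 (horizontal axis) and over LSD1WT replicate 2 (vertical axis) for each tested gene in grey, with 4 gene lists in colour. The 20 osteoclast fusion and resorption genes sit mostly to the left of 0 on the horizontal axis. On the vertical axis they lie above 0, most of them far above. Tissue macrophage genes sit mostly the other way. The antiviral interferon-stimulated genes lie above 0 on both axes, and the sterol and fatty acid synthesis genes mostly below 0 on both.

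The 10 largest upward gaps were held by Slfn1, Ly6a, Slc6a4, Armcx2, Gfi1b, Lilra6, Bst1, Sirpb1c, Pira12 and Sirpb1a. Slfn1 was at 0.752 and 0.990 CPM in LSD1WT and 30.4 and 35.6 CPM in LSD1cKO. Its log2 fold change was 5.24 ± 0.76 (SE, n = 2 and 2), with an adjusted p of 0.218 in edgeR and 1.73e-11 in DESeq2. Ly6a, which encodes the surface antigen Sca-1 of stem cells and of interferon-exposed leukocytes, was at 4.64 and 12.4 CPM against 180 and 286 CPM. Its log2 fold change was 4.78 ± 0.57, with adjusted p-values of 0.140 in edgeR and 1.96e-14 in DESeq2. Both genes stood far from any LSD1WT value. Slc6a4, the serotonin transporter gene, was at 7.61 and 0.347 CPM in LSD1WT and 87.3 and 93.7 CPM in LSD1cKO. Gfi1b, a zinc-finger repressor that recruits LSD1, was at 3.95 and 0.248 against 39.2 and 48.7 CPM. The LSD1WT values of Slc6a4 and Gfi1b were themselves far apart, and DESeq2 gave them adjusted p-values of 0.567 and 0.0696, above the threshold. Without both replicate 2 LSD1WT libraries, edgeR gave log2 fold changes of 3.57 and 3.48 for Slc6a4 and Gfi1b with adjusted p-values of 0.0130 and 0.0131.

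Further down the upward gaps, Bst1, the CD157 ectoenzyme, was at 7.49 and 5.15 CPM against 64.2 and 75.3 CPM, a log2 fold change of 3.46 ± 0.42. Sirpb1c, which encodes a signal-regulatory protein of the activating type, was at 3.79 and 7.38 against 62.9 and 72.4 CPM, and its relative Sirpb1a was at 1.44 and 2.57 against 25.9 and 23.8 CPM. These paralogues share sequence, so the split of reads between them is uncertain. Lilra6, an activating immunoglobulin-like receptor gene, was at 9.93 and 5.74 against 84.7 and 83.0 CPM, and Pira12, from the same paired-receptor cluster, at 12.7 and 4.06 against 101.5 and 99.5 CPM, with the same uncertainty. Armcx2, an armadillo-repeat gene, completed the 10 largest gaps at 3.54 and 1.78 against 39.8 and 42.5 CPM. All 6 of these genes were past 0.05 in DESeq2, with adjusted p-values from 1.85e-14 for Sirpb1a to 4.61e-04 for Pira12, while edgeR's adjusted p-values lay between 0.134 and 0.429.

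After Kdm1a, the downward gaps were smaller than the upward ones. Col4a1, a basement-membrane collagen gene, was at 1.82 and 2.82 CPM in LSD1WT and 0.278 and 0.271 CPM in LSD1cKO, a log2 fold change of -3.05 ± 0.50 with adjusted p-values of 0.231 in edgeR and 2.91e-04 in DESeq2. Ccn1, which encodes a secreted matricellular protein, was at 2.76 and 2.13 against 0.357 and 0.226 CPM, and Nptx1, a pentraxin gene, at 4.89 and 3.91 against 1.15 and 0.903 CPM. These genes were low in all 4 libraries. Dmpk, a serine-threonine kinase gene, was at 55.3 and 125 against 19.1 and 25.1 CPM, and Dmwd, its neighbour in the genome, at 17.1 and 28.1 against 6.54 and 8.04 CPM. Acat2, which makes acetoacetyl-CoA for sterol synthesis, was at 15.2 and 19.3 against 6.94 and 6.87 CPM. The gap junction gene Gja1, at 9.62 and 14.3 against 4.44 and 3.43 CPM, was among those just short of a 2-fold gap. The 4 genes that DESeq2 called lower were Kdm1a, Col4a1, Amigo1 and Nr1d1, of which Amigo1 and Nr1d1 are named here after their values were seen. Amigo1, an adhesion molecule gene, was at 9.68 and 11.3 against 4.84 and 4.16 CPM, and Nr1d1, the circadian repressor REV-ERBα, at 13.5 and 10.2 against 4.80 and 4.65 CPM.

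**Figure D2:**
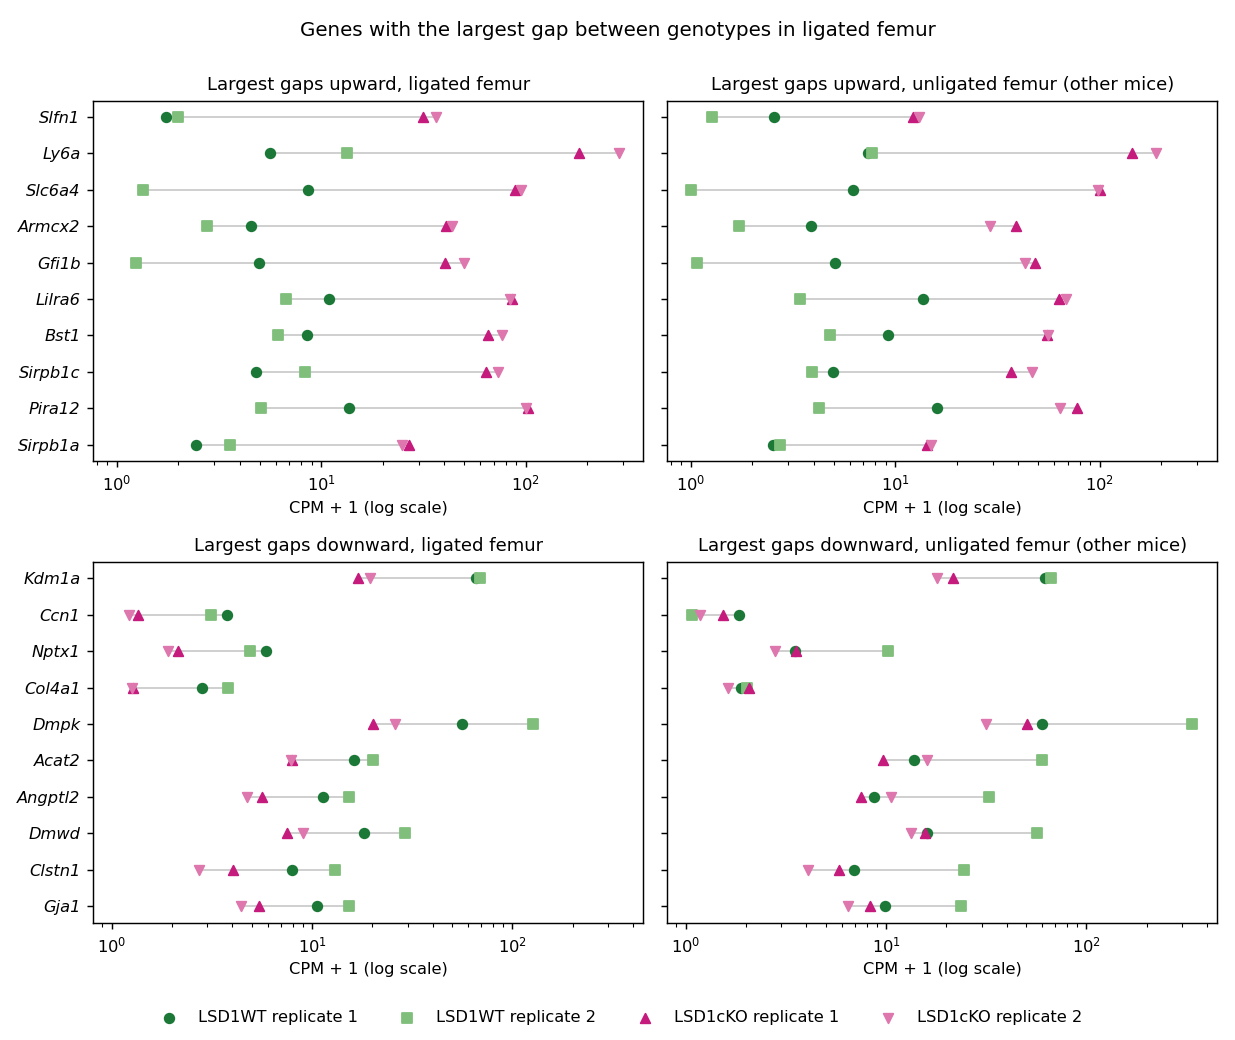
CPM in each library, on a log axis, of the 10 genes with the largest upward and the 10 with the largest downward gap between genotypes, in ligated femur (left) and in the unligated femur libraries of other mice (right). The genes were chosen on the left panel, where the genotypes cannot overlap, and in the right panel Slfn1 and Ly6a keep both LSD1cKO points above both LSD1WT points whereas Ccn1 and Col4a1 have overlapping genotypes.

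The antiviral interferon-stimulated genes were higher in LSD1cKO than in both LSD1WT libraries without exception among those tested. Of 39 on the list, Ifi44l had 0 counts and 38 were tested, and all 38 were separated upward, against 18.4% of all genes, with 23 separated by 2-fold or more against 1.66%. Their median log2 fold change was 1.87 against both LSD1WT libraries, 3.73 against replicate 1 and 1.30 against replicate 2, where the medians of all genes were -0.03, -0.05 and 0.08. The LSD1WT libraries differed on this list too, since its summed level was 784 CPM in replicate 1 and 3098 CPM in replicate 2, against 6225 and 7348 CPM in LSD1cKO. None passed the adjusted threshold in edgeR. At an unadjusted p under 0.05 in edgeR 25 were higher, beside 593 of all 16130 genes. DESeq2 called 10 of them higher, beside 139 of all 16130 genes.

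Isg15 was at 6.17 and 18.2 CPM in LSD1WT and 107 and 188 CPM in LSD1cKO. Its log2 fold change was 3.60 ± 0.70, with adjusted p-values of 0.343 in edgeR and 6.36e-05 in DESeq2. The promoter of this gene was the one above with 3 overlapping matches. Oasl1, which encodes a protein of the oligoadenylate synthetase family, was at 3.60 and 7.23 against 49.1 and 83.2 CPM, a log2 fold change of 3.61 ± 0.70, and its promoter held no match in the 150 bases before the start. Usp18, which removes ISG15 from proteins, was at 4.39 and 15.9 against 67.6 and 93.0 CPM, and Zbp1, a sensor of Z-form nucleic acids, at 2.85 and 21.04 against 86.6 and 115 CPM. Oas1g, another synthetase, was at 4.73 and 15.7 against 55.8 and 94.3 CPM, with reads that may be shared among the Oas1 copies. In all of these genes LSD1WT replicate 2 was the nearer to LSD1cKO.

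The interferon genes that the study followed by qRT-PCR were also far apart between the LSD1WT libraries. Ifit1 was at 6.89 and 51.9 CPM in LSD1WT and 162 and 217 CPM in LSD1cKO, a log2 fold change of 2.69 ± 0.90 with adjusted p-values of 0.845 in edgeR and 0.121 in DESeq2. Ifit2 was at 16.4 and 116 against 324 and 360 CPM, and Ifit3 at 6.86 and 46.6 against 132 and 158 CPM, the latter with a near-identical copy, Ifit3b, at 1.44 and 11.04 against 30.1 and 37.6 CPM. Oasl2 was at 14.0 and 118 against 260 and 317 CPM. All were separated upward, and the log2 fold change of Ifit1 was 4.70 against LSD1WT replicate 1 and 1.87 against replicate 2. Without both replicate 2 LSD1WT libraries the adjusted p-values in edgeR were 0.0212 for Ifit1, 0.0278 for Ifit2, 0.0288 for Ifit3 and 0.0582 for Oasl2. At the other end of the list, Ifi27l2a was barely separated, at 16.1 and 223 against 233 and 488 CPM, and Eif2ak2, the RNA-activated kinase PKR, had the smallest log2 fold change, 0.69, at 54.3 and 94.0 against 123 and 116 CPM. Slfn5 and Parp14, named for the highest mean CPM on the list, which is not corrected for length, were at 63.5 and 269 against 618 and 619 CPM and at 86.0 and 332 against 535 and 476 CPM.

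The interferon-inducible GTPases, which act on membranes of intracellular pathogens, were likewise separated upward in 15 of 15 cases, 12 of them by 2-fold or more. Their median log2 fold change was 2.22, and 2.98 and 1.67 against LSD1WT replicates 1 and 2. Gbp4 was at 2.79 and 2.23 CPM in LSD1WT and 20.4 and 27.4 CPM in LSD1cKO, a log2 fold change of 3.25 ± 0.75 with adjusted p-values of 0.477 in edgeR and 0.0014 in DESeq2. Unlike most of the antiviral genes, its LSD1WT values lay close together. Tgtp2 was at 1.22 and 8.37 against 42.0 and 58.2 CPM, with a copy, Tgtp1, that was also separated upward. Gbp7 was at 60.6 and 70.3 against 154 and 161 CPM, a log2 fold change of 1.26 ± 0.54, and Irgm1 at 34.4 and 90.3 against 191 and 234 CPM. The promoters of Gbp7, Irgm1 and Tgtp2 each held the motif. In this list 5 genes passed in DESeq2, which called 139 of all 16130 genes higher, and none passed in edgeR.

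In the interferon signalling list, 8 of 17 tested genes were separated upward, or 7 under upper quartile scaling, and 1, Irf3, downward. The shares of all genes were 18.4% and 14.1%. The median log2 fold change of the list was 0.88 against LSD1WT replicate 1 and -0.04 against replicate 2. Irf7, the inducible factor that amplifies interferon production, was at 14.2 and 69.6 CPM in LSD1WT and 259 and 402 CPM in LSD1cKO, a log2 fold change of 2.98 ± 0.86. Stat2 was at 26.4 and 134 against 175 and 201 CPM, and the inhibitor Socs1 at 2.44 and 1.44 against 4.08 and 6.28 CPM. The receptor genes Ifnar1, Ifnar2 and Ifngr1 were not separated, Ifnar1 at 175 and 310 against 283 and 260 CPM. Ifnb1 itself, the interferon-β gene, had 0 and 1 counts in LSD1WT and 1 and 6 counts in LSD1cKO and was too low to be tested, so a difference was not detectable at this depth.

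Among pattern recognition receptors, the cytosolic RNA sensors were separated and most Toll-like receptors were not. Rigi, the RIG-I helicase gene, was at 38.8 and 110 CPM in LSD1WT and 259 and 290 CPM in LSD1cKO, and Ifih1, which encodes MDA5, at 22.4 and 66.9 against 147 and 148 CPM. Both genes are also on the antiviral list. Clec5a, a lectin receptor that signals through DAP12, was at 24.0 and 25.9 against 92.3 and 105 CPM, a log2 fold change of 1.99 ± 0.27 with adjusted p-values of 0.178 in edgeR and 5.26e-07 in DESeq2. Its LSD1WT values were nearly equal. In the list of 23, 8 were separated upward, or 7 under RLE or upper quartile scaling, and 2, Mavs and Ticam1, downward. The shares of all genes were 18.4% and 14.1%. A further 12 stood above LSD1WT replicate 1 and below replicate 2, beside 19.8% of all genes. Among them were Tlr4 at 59.3 and 261 against 125 and 129 CPM and Tlr7 at 26.7 and 488 against 123 and 97.4 CPM. The median log2 fold change was 1.89 against LSD1WT replicate 1 and -0.20 against replicate 2. The direction for most of these receptors thus depended on which LSD1WT library was taken.

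**Figure D3:**
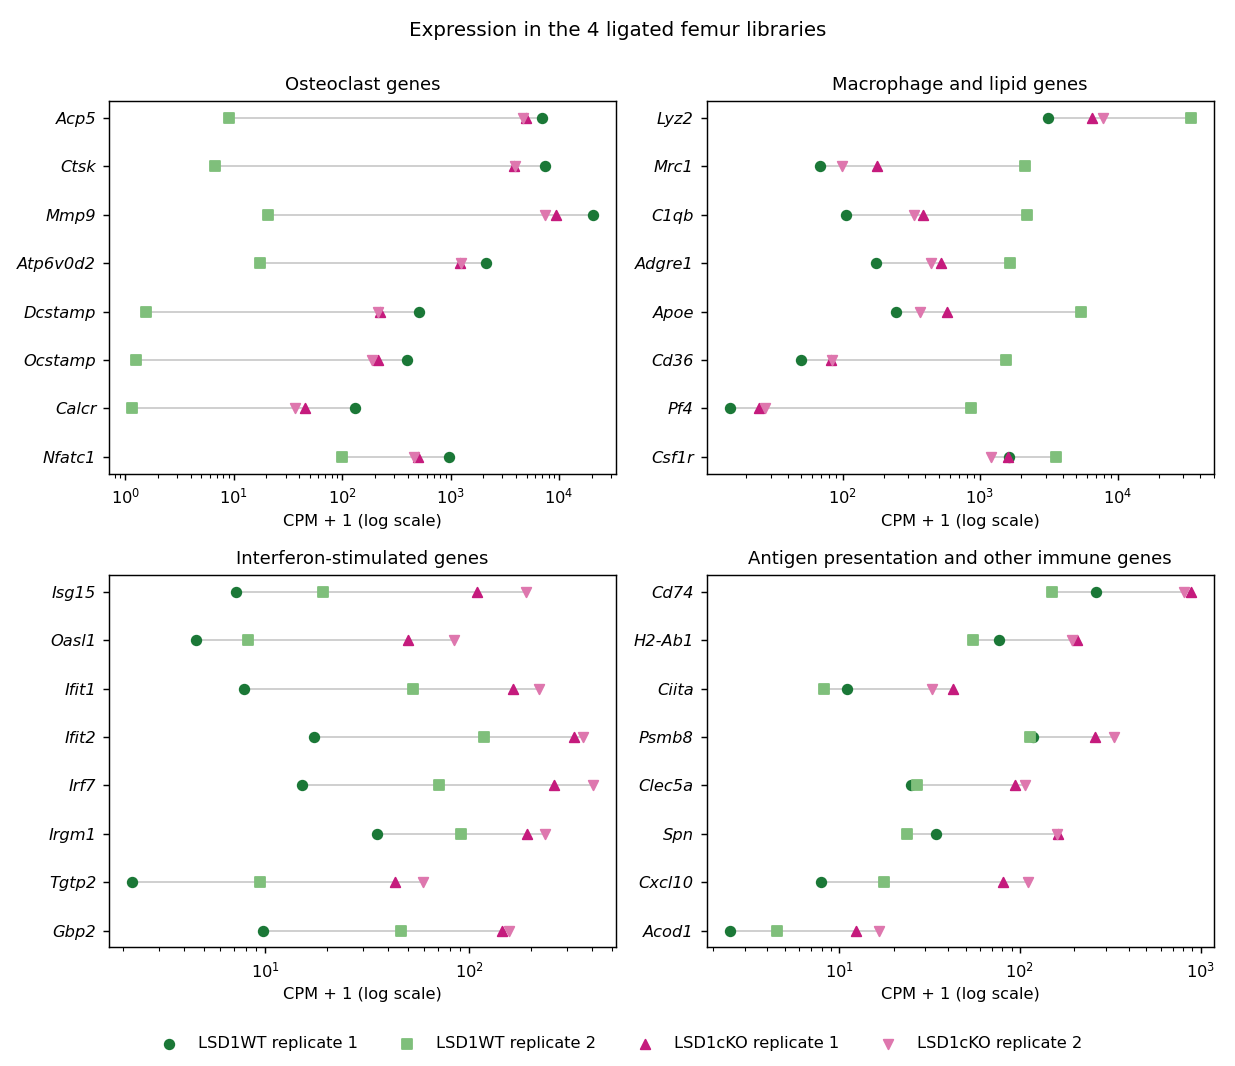
CPM + 1 on a log axis in each of the 4 ligated femur libraries for osteoclast genes, macrophage and lipid genes, interferon genes and other immune genes. For Isg15, Irf7 and Cd74 both LSD1cKO points lie to the right of both LSD1WT points, whereas for Acp5 and Ctsk LSD1WT replicate 2 lies far to the left and replicate 1 to the right of LSD1cKO.

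In MHC class I presentation, 14 of 15 tested genes were separated upward (13 under RLE or upper quartile scaling) and none downward, with H2-D1 the exception at 856 and 1831 CPM against 1408 and 1366 CPM. The median log2 fold change was 0.84, and it was 1.10 and 0.60 against LSD1WT replicates 1 and 2. Psmb8, an immunoproteasome subunit, was at 117 and 113 CPM in LSD1WT and 261 and 329 CPM in LSD1cKO, a log2 fold change of 1.36 ± 0.28 with adjusted p-values of 0.367 in edgeR and 0.00246 in DESeq2. Nlrc5, the class I transactivator, was at 14.1 and 42.1 against 94.8 and 96.0 CPM. B2m, the shared light chain, was at 715 and 1666 against 1679 and 2050 CPM and hardly cleared LSD1WT replicate 2. None of the 15 passed in edgeR and 1 passed in DESeq2, which called 139 of all 16130 genes higher.

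In MHC class II presentation, 10 of 11 genes were separated upward, 5 of them by 2-fold or more. The median log2 fold change of this list was 1.46, or 1.54 and 1.88 when each LSD1WT library was taken singly. Ciita, the class II master regulator, was at 9.99 and 7.23 CPM in LSD1WT and 41.6 and 31.5 CPM in LSD1cKO, a log2 fold change of 2.08 ± 0.55 with adjusted p-values of 0.652 in edgeR and 0.0439 in DESeq2. Cd74, the invariant chain, was at 263 and 149 against 881 and 806 CPM, and H2-Ab1, a class II β chain, at 75.9 and 54.1 against 205 and 193 CPM. Ctss, the protease that degrades the invariant chain, was at 449 and 1446 against 2041 and 2093 CPM. H2-Ob was the member not separated, at 0.564 and 1.78 against 1.35 and 2.17 CPM. None of the 11 passed in edgeR and 1 passed in DESeq2, beside 139 of all 16130 genes called higher there. For Ciita, Cd74 and H2-Ab1 LSD1WT replicate 1 was the nearer to LSD1cKO, unlike for the antiviral genes. Class II genes also mark B cells and dendritic cells. Of those cells' markers, 4 of 8 B cell genes were separated upward and 1 downward. Of 10 dendritic cell genes 4 were separated upward and none downward. The shares of all genes were 18.4% and 14.1%. Of the B cell genes separated upward, Ms4a1 and Pax5 were at 0.407 CPM or less in all 4 libraries, and Blnk was at 62.2 and 53.6 against 126 and 133 CPM. Of the dendritic cell genes separated upward, Flt3 was at 2.13 and 1.39 against 3.49 and 3.25 CPM, and Clec9a at 0.439 and 0.495 against 0.991 and 1.17 CPM. Another 3 dendritic cell genes lay above LSD1WT replicate 1 and below replicate 2, and 1 the reverse. The members with the highest mean CPM were so placed, Tcf4 at 40.1 and 210 against 77.2 and 63.8 CPM and Itgax at 22.0 and 1.88 against 18.3 and 12.9 CPM. The part of such cells in the class II difference was not tested.

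Chemokines and inflammasome genes divided by which LSD1WT library was the reference. Cxcl10, a ligand of CXCR3, was at 6.95 and 16.6 CPM in LSD1WT and 79.6 and 110 CPM in LSD1cKO, and its relative Cxcl9 at 0.345 and 0.396 against 2.14 and 4.43 CPM. Cxcl16, a membrane-bound chemokine, was at 36.1 and 86.7 against 169 and 206 CPM. These, Ccl5 and Ccl22 were the 5 of 17 tested chemokines separated upward, beside 18.4% of all genes. Another 11 lay above LSD1WT replicate 1 and below replicate 2, beside 19.8% of all genes. Examples were Pf4 at 14.1 and 853 against 23.8 and 26.1 CPM and Ccl3 at 4.17 and 53.0 against 9.83 and 8.18 CPM. Of 10 chemokine receptors 5 were separated upward, beside 18.4% of all genes, among them Cxcr4 at 39.5 and 108 against 145 and 148 CPM. The receptors with the highest mean CPM were not separated, Ccr1 at 745 and 156 against 581 and 657 CPM and Ccr2 at 37.4 and 240.5 against 243 and 233 CPM.

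In the inflammasome, cytokine and itaconate list, 6 of 16 were separated upward, beside 18.4% of all genes. Acod1, the enzyme that makes itaconate, was at 1.47 and 3.52 CPM in LSD1WT and 11.4 and 15.5 CPM in LSD1cKO, a log2 fold change of 2.44 ± 0.70 with adjusted p-values of 0.707 in edgeR and 0.049 in DESeq2. Casp1, the inflammatory caspase, was at 62.2 and 107 against 158 and 198 CPM, and Gsdmd, the pore protein it cleaves, at 227 and 77.8 against 398 and 411 CPM. Nos2, the inducible nitric oxide synthase, had 0.439 CPM in LSD1WT replicate 1, 0 counts in replicate 2, and 2.54 and 2.53 CPM in the LSD1cKO libraries. Nlrp3, the inflammasome sensor, was not separated, at 18.9 and 170 against 55.0 and 55.2 CPM, nor was Hif1a, the hypoxia factor, at 89.8 and 161 against 118 and 105 CPM. For Nlrp3 and Hif1a both LSD1cKO values lay between the LSD1WT ones, and Il1b, at 1.57 and 15.9 against 2.38 and 3.34 CPM, did the same.

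Of 15 monocyte genes tested, 8 were separated upward, or 7 under RLE or upper quartile scaling, and 1, Nr4a1, downward, beside 18.4% and 14.1% of all genes. Spn, which encodes CD43, was at 33.3 and 22.6 CPM in LSD1WT and 161 and 159 CPM in LSD1cKO, a log2 fold change of 2.52 ± 0.31 with adjusted p-values of 0.140 in edgeR and 5.77e-09 in DESeq2. Ms4a4c was at 4.26 and 23.1 against 83.3 and 122 CPM, and Vcan, the proteoglycan versican, at 27.9 and 3.71 against 116 and 68.1 CPM. Ly6c2, which marks classical monocytes, was at 3.16 and 5.79 against 8.17 and 10.7 CPM. F13a1 stood apart from these, at 7.11 and 765 against 38.3 and 27.4 CPM, between the LSD1WT libraries.

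Myeloid transcription factors were separated upward in 5 of 17 cases, beside 18.4% of all genes. Klf4, a factor of monocyte differentiation, was at 14.6 and 9.26 CPM in LSD1WT and 41.2 in both LSD1cKO libraries, a log2 fold change of 1.79 ± 0.32 with adjusted p-values of 0.272 in edgeR and 0.00107 in DESeq2. Cebpe, a factor of granulocyte maturation, was at 0.814 and 1.34 against 5.91 and 8.18 CPM, with adjusted p-values of 0.445 and 0.00129 in edgeR and DESeq2. Cebpa, Cebpb, Maf and Irf8 were among the 9 that lay above LSD1WT replicate 1 and below replicate 2, beside 19.8% of all genes. Spi1, which encodes PU.1, was at 653 and 326 against 564 and 625 CPM.

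Osteoclast genes did not separate by genotype and could not be compared without choosing an LSD1WT library. In both LSD1cKO libraries, 19 of the 20 fusion and resorption genes were below LSD1WT replicate 1 and above replicate 2, beside 22% of all genes. Cd9, a tetraspanin, was the other, at 346 and 120 CPM against 462 and 536 CPM. The summed level of the list was 47800 CPM in LSD1WT replicate 1, 1488 in replicate 2, and 25980 and 23600 in LSD1cKO. The median log2 fold change was accordingly -0.99 against replicate 1 and 7.38 against replicate 2. Dcstamp, which is needed for cell fusion, was at 509 and 0.545 CPM against 221 and 212 CPM, and Mmp9, a matrix metalloproteinase, at 20572 and 19.7 against 9435 and 7453 CPM. Nfatc1, the master factor, was at 967 and 98.1 against 499 and 454 CPM. For each of these the LSD1cKO libraries were close together and lay below the LSD1WT library that had osteoclast transcripts. None of the 20 passed in edgeR or in DESeq2.

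Of 14 osteoclast transcription factors, 9 lay below LSD1WT replicate 1 and above replicate 2, beside 22% of all genes. Relb and Mycl were separated upward and Nfkb1 and Jun downward, beside 18.4% and 14.1% of all genes, so neither count of 2 in 14 stood out. Relb was at 78.8 and 40.4 against 88.7 and 87.3 CPM and Jun at 172 and 151 against 148 and 135 CPM. In the receptor and signalling list, Csf1r, the M-CSF receptor, was separated downward, narrowly against LSD1WT replicate 1, at 1615 and 3555 against 1596 and 1192 CPM. Tnfrsf11a, which encodes RANK, was at 311 and 89.4 against 225 and 214 CPM, and lay between the LSD1WT libraries. Among 11 repressors of osteoclast differentiation, Nfkbie was separated upward and Id1 downward, again beside 18.4% and 14.1% of all genes. In this list 6 lay above replicate 1 and below replicate 2, beside 19.8% of all genes, including Irf8 at 19.7 and 224 against 86.2 and 75.6 CPM. Tissue macrophage genes mirrored the osteoclast list, with 15 of 21 above LSD1WT replicate 1 and below replicate 2, beside 19.8% of all genes. Their median log2 fold change was 1.41 against replicate 1 and -2.23 against replicate 2. Mrc1, the mannose receptor, was at 67.5 and 2131 against 176 and 98.3 CPM. Axl, a receptor kinase that takes part in the clearance of dying cells, was separated upward at 13.1 and 27.2 against 44.5 and 57.3 CPM.

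**Figure D4:**
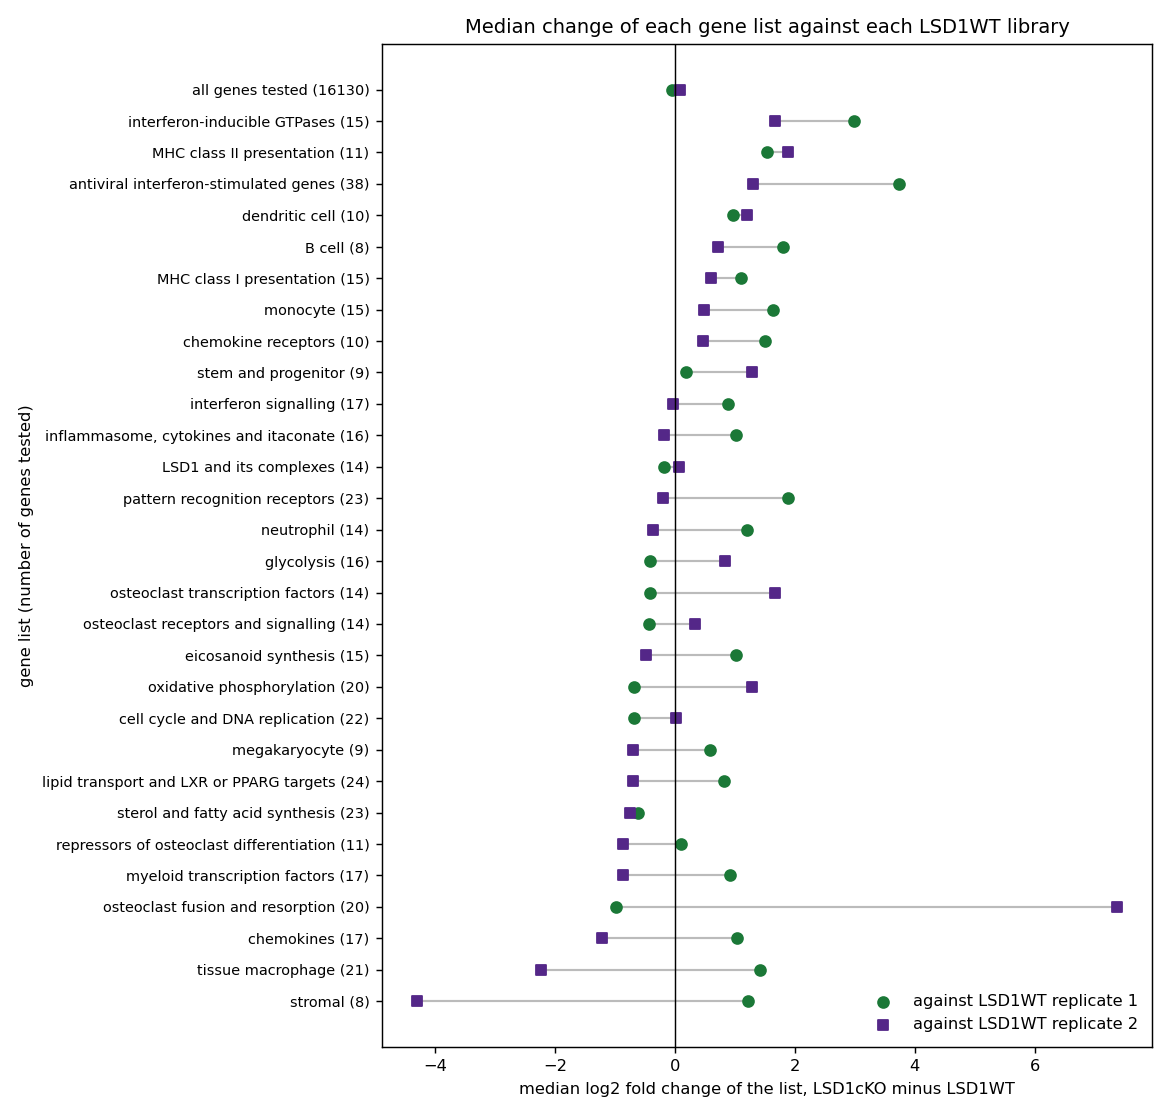
Median log2 fold change of LSD1cKO over LSD1WT replicate 1 (circles) and over replicate 2 (squares) for the members of each gene list. The antiviral genes (3.73 and 1.30), the GTPases (2.98 and 1.67) and MHC class II genes (1.54 and 1.88) are above 0 against both libraries and sterol genes below 0 against both (-0.62 and -0.75), while the fusion and resorption genes change side (-0.99 and 7.38).

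The sterol and fatty acid synthesis genes were the group with most members below both LSD1WT libraries. Of 23 tested, 17 were separated downward, against 14.1% of all genes, and none upward, under each of 3 scalings, but none by 2-fold or more and 2 were past an unadjusted p of 0.05. The summed level of the list was 2394 and 2358 CPM in LSD1WT and 1449 and 1454 CPM in LSD1cKO, and the median log2 fold change was -0.60, with -0.62 and -0.75 against the LSD1WT libraries singly. Insig1, a sterol sensor, was at 156 and 321 CPM in LSD1WT and 83.3 and 88.0 CPM in LSD1cKO, a log2 fold change of -1.47 ± 0.49 with an adjusted p of 0.839 in edgeR's quasi-likelihood test. Hmgcs1, the cytosolic HMG-CoA synthase, was at 222 and 225 against 126 and 115 CPM, a log2 fold change of -0.89 ± 0.34. Srebf2, the main activator of sterol synthesis genes, was at 243 and 219 against 170 and 158 CPM. Scd2, which with Srebf2 had the highest mean CPM of the list, was not separated, at 599 and 143 against 192 and 200 CPM. The near-equal LSD1WT sums thus did not hold for each member. The LSD1WT libraries, so different in osteoclast and macrophage transcripts, were near each other for Hmgcs1 and Srebf2. DESeq2 called none of the 23, and 4 of all 16130 genes lower.

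Lipid transport and eicosanoid genes held members of each pattern. Abcg2, an efflux transporter, was at 7.33 and 12.7 CPM in LSD1WT and 27.0 and 31.8 CPM in LSD1cKO, a log2 fold change of 1.55 ± 0.42 with an adjusted p of 0.663 in edgeR. Alox5, the lipoxygenase of leukotriene synthesis, was at 20.4 and 13.7 against 49.4 and 38.6 CPM, a log2 fold change of 1.37 ± 0.44. Both were separated upward, as was Alox15, which was low at 0.219 and 0.099 against 0.674 and 0.632 CPM. Abca3, at 42.5 and 167 against 68.9 and 53.9 CPM, and Abcb1b, at 23.7 and 83.6 against 54.2 and 45.6 CPM, lay between the LSD1WT libraries, and so did Cyp1b1 at 0.532 and 2.43 against 0.872 and 0.903 CPM and Cyp27a1 at 3.48 and 96.2 against 35.2 and 26.8 CPM. Cyp3a11 was too low to be tested. Of 24 lipid transport genes 7 were separated upward, beside 18.4% of all genes, and 12 lay above replicate 1 and below replicate 2, beside 19.8%. The 12 included Cd36 at 48.8 and 1548 against 80.9 and 83.0 CPM and Apoe at 245 and 5460 against 578 and 363 CPM. Of 15 eicosanoid genes 6 were separated upward and none downward, beside 18.4% and 14.1% of all genes, among them Ptgs2, the inducible cyclooxygenase, at 0.783 and 0.941 against 2.62 and 2.08 CPM.

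None of 20 oxidative phosphorylation genes was separated, and 17 were below LSD1WT replicate 1 and above replicate 2, beside 22% of all genes. Atp5b, 1 of the 17, was at 2574 and 478 CPM against 1568 and 1581 CPM. In glycolysis, Slc16a3, the lactate exporter, was separated upward at 20.6 and 20.995 against 51.7 and 52.3 CPM, a log2 fold change of 1.32 ± 0.25 with adjusted p-values of 0.326 in edgeR and 0.00417 in DESeq2. The median log2 fold change of its list of 16 was 0.13. Of 22 cell cycle and replication genes 8 were separated downward, beside 14.1% of all genes, and none upward. Another 8 lay below LSD1WT replicate 1 and above replicate 2, beside 22% of all genes. Mki67, a proliferation marker, was among those separated downward, at 188 and 114 against 105 and 83.8 CPM, and no member was past an unadjusted p of 0.05.

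Markers of other marrow cells were counted beside these results. Of the erythroid list, the 4 globin genes had 0 or 1 counts in each library. The summed neutrophil list of 14 was at 135 and 477 CPM in LSD1WT and 395 and 354 CPM in LSD1cKO. Of its members 5 were separated upward, or 4 under RLE scaling, and 1, Mpo, downward, beside 18.4% and 14.1% of all genes. A further 7 lay above LSD1WT replicate 1 and below replicate 2, beside 19.8% of all genes. S100a9, separated upward, was at 33.7 and 104 against 120 and 117 CPM, and Mpo at 6.17 and 12.3 against 5.115 and 4.61 CPM. The summed stem and progenitor list was at 21.9 and 26.4 against 200 and 308 CPM, with Ly6a making up nearly all of the LSD1cKO sums, while Kit was at 2.00 and 0.743 against 3.33 and 3.48 CPM, and Cd34 at 6.33 and 5.89 against 7.73 and 10.2 CPM. The B cell list summed to 75.0 and 269 against 173 and 182 CPM, mostly Ighm and Blnk. Of its 8 members 4 were separated upward and 1 downward, beside 18.4% and 14.1% of all genes. Among those upward was Blnk, at 62.2 and 53.6 against 126 and 133 CPM. Ighm was not separated and lay between the LSD1WT libraries, at 11.4 and 208 against 43.1 and 43.3 CPM. Stromal genes summed to 1.85 and 34.0 against 4.16 and 2.85 CPM, and megakaryocyte genes to 48.3 and 889 against 87.8 and 74.9 CPM, mostly Pf4 in LSD1WT replicate 2. The mast cell, T and NK cell and erythroid lists had 2, 2 and 1 members high enough to be tested. The part of such cells in the results was not tested.

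The same contrast in unligated femur, in other mice, gave values for comparison. There 1759 genes were separated upward (10.9%) and 1201 downward (7.45%), and no gene passed the adjusted threshold in edgeR, with a smallest adjusted p of 0.206 and 503 genes higher and 96 lower without adjustment. Of the 2966 genes separated upward in ligated femur, 1124 were separated upward in unligated femur, which is 37.9% of the ligated and 63.9% of the unligated set. Downward, 514 were shared, 22.6% of the ligated and 42.8% of the unligated set. Of the 267 genes with an upward gap of 2-fold or more, 250 were separated upward in unligated femur as well (93.6%), whereas of the 8 with a downward gap 3 were separated the same way (37.5%). Antiviral genes were separated upward in 35 of 38 cases in unligated femur with a median log2 fold change of 1.72, GTPases in 15 of 15 with 2.12, MHC class I genes in 13 of 15 with 0.88, and MHC class II genes in 6 of 11 with 0.62. Sterol genes were separated downward in 6 of 23, with a median of -0.76. Their summed level was 1871 and 4420 CPM in unligated LSD1WT replicates 1 and 2, and 2112 and 1797 CPM in unligated LSD1cKO. The genotypes thus overlapped there, unlike in ligated femur, and LSD1WT replicate 2 was the library set apart.

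Values of single genes in unligated femur are given next. Isg15 was at 12.99 and 9.79 CPM in unligated LSD1WT and 56.0 and 76.7 CPM in unligated LSD1cKO, and its log2 fold change was 1.06 larger under ligature, with an unadjusted p of 0.277 in edgeR's interaction test. Slfn1 was at 1.57 and 0.278 against 11.2 and 12.04 CPM, a log2 fold change 1.60 smaller than under ligature (unadjusted p = 0.125 in edgeR's interaction test). Kdm1a was at 61.4 and 65.7 against 20.5 and 17.0 CPM. Col4a1, low in all of these libraries, was at 0.881 and 1.03 against 1.08 and 0.626 CPM, so its genotypes overlapped. Its ligated minus unligated difference was -2.89 (unadjusted p = 0.0029, adjusted p = 0.99994 in edgeR's interaction test). For Ccn1, also low, that difference was -2.70 (unadjusted p = 0.080 in edgeR's interaction test). Isg15, Slfn1, Col4a1 and Ccn1 were chosen by their gap in the same ligated libraries, which favours a larger difference under ligature. Their unadjusted p-values therefore cannot show an effect of the ligature. Acp5 in the unligated LSD1WT libraries was at 7704 and 25.1 CPM, so replicate 2 lacked osteoclast transcripts there too. The test of the difference itself, ligated minus unligated, called no gene (0%), with 15 genes higher and 17 lower at an unadjusted p under 0.05. DESeq2 called none for the same difference, with 11 and 15 without adjustment. The unadjusted counts moved to 320 higher and 113 lower without ligated LSD1WT replicate 1, 255 and 125 without ligated replicate 2, 77 and 301 without unligated LSD1WT replicate 1, 72 and 113 without unligated LSD1WT replicate 2, and 153 and 28 without unligated LSD1cKO replicate 2. LSD1WT libraries with the same number deviated together across ligated and unligated femur (correlation of deviations 0.769), although they were different mice, and a fit with a replicate term within each genotype, added after the data were seen, again called none, with 63 and 48 without adjustment. A difference by ligature was not detectable with these libraries.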

How the data were processed

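Counts per gene for 12 libraries were deposited by the authors as 1 table of raw read counts over 57010 genes, with no normalization. Per the submitters' processing notes, HISAT2 2.1.0, featureCounts, FastQC and edgeR were used with GRCm39. The annotation release and the strand setting of the counting are not given in the sources used here, so reads of overlapping or antisense genes cannot be told apart, and reads shared by near-identical copies could fall to either. Groups came from library names and titles. Of the 12 libraries, 1 whose labels conflict was left out, and edgeR 4.0.16 (R 4.3.3, limma 3.58.1) fitted the remaining 11 with TMM scaling, its expression filter (16130 genes kept), robust quasi-likelihood dispersion and 1 coefficient per condition, with Benjamini-Hochberg adjustment at 0.05. Fitting 11 libraries lets all conditions share 1 estimate of the spread. The common biological coefficient of variation was 0.463. A gene high in a single library passes the filter. CPM were computed with TMM-scaled library sizes, 3 counts being the floor. Gaps were taken as log2((nearer LSD1cKO CPM + 1)/(nearer LSD1WT CPM + 1)). DESeq2 1.42.0 and the other alternatives are given at the end, and leaving out both LSD1WT replicates of 1 number, and a replicate term within each genotype, were added after the data were seen. The procedure was run on simulated counts with planted changes, and their recovery was required only at a dispersion well below the estimated one. That run therefore does not show that changes could be called at the spread of these data. The genes named were Kdm1a, Lyz2, the 10 largest gaps in each direction, the 2 largest gaps and 2 highest mean CPM of each list, and the genes the study followed by qRT-PCR, with further list members given as examples after their values were seen, and a few genes are not reported here. The members and lists were chosen with earlier results of these data known.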

Additional observations from a re-analysis of the deposited data

How the results depend on the processing

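The counts of called genes depended on the tool, the filter and the libraries. Against both LSD1WT libraries, where edgeR called 0 higher and 0 lower, DESeq2 called 139 and 4, no filter on low counts gave 22 and 1, and all 12 libraries gave 0 and 1. Against LSD1WT replicate 1 the counts were 368 and 17 with DESeq2, 113 and 1 with no filter, and 17 and 1 with all 12 libraries, and against replicate 2 they were 714 and 237, 50 and 11, and 10 and 1. Leaving out both replicate 2 LSD1WT femur libraries gave 606 and 61, and both replicate 1 libraries 1587 and 1375, with 156 higher and 9 lower in both, but the spread then came from the LSD1cKO pairs alone. RLE scaling, the 8 femur or 4 ligated femur libraries alone and leaving out each ligated library in turn gave 0 and 0. Leaving out each library moved the genes above every LSD1WT library to between 3934 and 7524 (7524 without LSD1WT replicate 1, 6972 without replicate 2, 4454 without LSD1cKO replicate 1) and those below to between 3215 and 6488, while a 2-fold gap left 267 and 8. The Kdm1a log2 fold change lay between -2.05 and -1.85 without each library and passed the threshold with DESeq2 (-1.99), no filter (-1.99, adjusted p = 0.0221 in edgeR) and all 12 libraries (-2.03, adjusted p = 0.0383 in edgeR). With a replicate block edgeR called 0 and 0, with 699 higher and 142 lower without adjustment in 11 libraries. The numbers, which mark different mice, were not taken to pair LSD1WT with LSD1cKO (correlation of deviations -0.0217 in ligated and 0.217 in unligated femur, and 0.769 between ligated and unligated LSD1WT). The 88 named genes that were above or below both LSD1WT libraries could not reverse when 1 of these was left out, and of the other 54 named genes 48 had opposite signs against the LSD1WT libraries, such as Acp5 (-0.64 and 9.22). Of the 88, 23 besides Kdm1a passed 0.05 with DESeq2. Of 383 recomputed list medians, 25 moved by more than the standard deviation of the list's 2 medians against the single LSD1WT libraries, 18 of them without 1 LSD1WT library. The cause was not tested. That allowance is wide where the LSD1WT libraries differ, and it is built from the medians without 1 LSD1WT library. Medians that stayed within it are therefore not shown to be stable. Depth limited the genes near the floor of 3 counts, such as Ifnb1.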
